A study of Xenopus laevis with 16 samples.

Results

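The genes of the bone morphogenetic protein (BMP) and transforming growth factor beta (TGF-beta) pathways were followed in amputated hindlimbs of Xenopus laevis tadpoles. Members were all probe sets whose single gene symbol in the platform annotation starts with bmp, gdf, tgfb, smad or id followed by a digit, or with bmpr, tgfbr, acvr or inhb, or is chrd, nog or fst apart from the homeolog suffix. A probe set is a group of short array probes read together as 1 value. The rule found 55 of 15491 probe sets that are not controls, for 43 of the 7531 single symbols on the array. The suffixes .L and .S name the duplicated copies, called homeologs, that this species carries of many genes. No probe set with the single symbol chrd was found. Amputation was at the middle of the zeugopodium (the shank), on one side or both. Tadpoles of stage 53 and of stage 57 were used, each sampled 1 or 5 days after the cut, which gives 4 groups of 4 arrays. The study describes stage 53 as competent to regenerate and stage 57 as not competent. In all groups the tissue lay 1 mm proximal to the cut. The labels name no genotype and no treatment other than amputation, and no unamputated limb was analysed here. Differences are therefore between amputated stages or days, not against an uninjured limb.

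BMPs, growth and differentiation factors (GDFs), activins and TGF-betas are secreted ligands that bring type I and type II receptor kinases together at the cell surface. The activated type I receptor phosphorylates receptor Smads, which join the shared co-Smad, Smad4, and enter the nucleus, where they change transcription. BMP-class receptors act mainly on Smad1, Smad5 and Smad9, and activin and TGF-beta receptors on Smad2 and Smad3. Secreted antagonists such as noggin and follistatin bind ligands, inhibitory Smads such as Smad6 and Smad7 dampen the signal inside the cell, and Id genes are classical transcriptional targets of BMP signalling. In vertebrate limbs BMPs act in outgrowth of the bud, in death of cells between the digits and in cartilage and bone formation. In amputated amphibian limbs and tails BMP and TGF-beta signalling are known to take part in regeneration.

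Values are log2 of the deposited array signal, so a difference of 1 is a change by a factor of 2. Arrays of a group correlated at 0.767 to 0.955 over all probe sets. However, 3 stage 57 arrays stood apart in the actin RNA control probes. A ratio of the 3' over the 5' actin control probe set, which rises when RNA is shortened or incompletely copied, was 4.7 and 4.76 (log2) for the 1-day arrays numbered 2 and 3. It was 5.72 for the 5-day array numbered 2. The other 13 arrays read 2.38 or less. For another RNA control, GAPDH, the 3' over 5' ratio was 5.46, 7.33 and 6.17 (log2) on those 3 arrays, in the same order. It was 3.63 to 5.22 on the others, so GAPDH set the 3 arrays apart less clearly. Results below use all 16 arrays unless it is said that these 3 high-actin arrays were left out. Of the 42 members kept in both fits, the stage difference changed sign without them in 9 at 1 day and 6 at 5 days. It kept its sign but moved by more than 1.5 times in 20 and 13, and many values below depend on these arrays. Tissue markers also moved with stage. Of 13 kept skeletal muscle probe sets, 10 were called lower at stage 53 at 1 day and 12 at 5 days, while 12 and 13 read lower. The median log2 difference was -3.4 and -3.24. The mean of that list per array ran from 7.75 to 8.68 at stage 53 and from 10.42 to 12.63 at stage 57. Of 9 fibroblast and connective tissue probe sets, 3 and 5 were called lower at stage 53 at 1 and 5 days, while 2 and 1 read higher. Of 8 epidermis probe sets, 2 were called higher at 1 day, both of krt8.1.S, and 0 at 5 days. Of 5 cartilage probe sets 1 and 0 were called lower, but 4 read lower on each day (median -1.2 and -1.68). The cartilage gene sox9.S went the other way, at 1.08 at 1 day. Array means of these 4 lists ran from 7.75 to 12.78. Dim signals are not separated from background here, so the presence of each tissue in every group was not tested. None of the few endothelial, red cell and myeloid probe sets was called with all arrays. Without the high-actin arrays, 12 and 12 muscle, 3 and 7 fibroblast and 1 and 2 cartilage probe sets were called lower at 1 and 5 days. For epidermis 0 and 1 were called higher, and at 5 days 1 red cell probe set was called higher at stage 53. The part of these tissue markers and of the actin ratio in the results below was not tested. In bulk tissue, fewer cells of a type and less RNA per cell cannot be told apart.

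With all arrays, 32 of the 43 kept pathway members, or 74.4%, read higher at stage 53 than at stage 57 at 1 day. At 5 days the count was again 32, though not of all the same members. These shares compare with 52.5% and 56.5% of all kept probe sets. On both days 28 members were higher (65.1%, beside 40.8% of all). Leaving out the high-actin arrays gave 34 of 43 at 1 day (79.1%, beside 54.2% of all) and 27 of 43 at 5 days (62.8%, beside 57.3%). That fit shares 42 of its 43 members with the fit of all arrays. With all arrays, the 43 are those of the 55 member probe sets that a low-signal filter over the whole array kept. They stand for 35 symbols. Counts of members are counts of probe sets, so a gene with several, such as bmpr1a.L, is counted more than once. At 5 days 7 of them were called between stages by limma (adjusted p below 0.05 over all 11618 kept probe sets). The 5 higher at stage 53 were smad6.L, acvr2b.S, bmp2.L, smad9.S and 1 probe set of bmpr1a.L, and the 2 lower were fst.L and tgfb2.L. That is 16.3% of the kept members, beside 7.37% of all kept probe sets called in either direction (3.48% higher and 3.89% lower). At an unadjusted limma p below 0.05, 17 members passed, or 39.5%, beside 22.6%. The median log2 difference was 0.55 over the kept members and 0.1 over all kept probe sets. Arrays of the stages did not overlap in 10 members higher and 2 lower at stage 53, or 27.9%, beside 18.5% of all kept probe sets (11.2% higher and 7.36% lower). With array quality weights, limma called 19 members at 5 days, beside 23% of all kept probe sets.

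At 1 day 0 of the 43 members were called, beside 2.55% of all kept probe sets (0.99% higher and 1.56% lower). At an unadjusted limma p below 0.05, 11 were higher and 2 lower, or 25.6% and 4.65%, beside 10.3% and 7.76% of all kept probe sets. The member median was 0.49, beside 0.04 over all. No overlap between the stages was seen for 8 members higher and 3 lower, or 25.6%, beside 9.19% of all kept probe sets (4.87% higher and 4.32% lower). The sign of the stage difference was the same at both days in 35 of the 43 members, with 28 higher at stage 53 both times and 7 lower. Over all kept probe sets the sign was the same in 72.5%, beside 81.4% of the members. With the high-actin arrays left out, 26 members were higher both times and 8 lower (79.1%, beside 70.9% of all). The days use different arrays, but all 43 differences come from one fit of 16 arrays. The plot of stage differences by role gives every kept member.

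**Figure D1:**
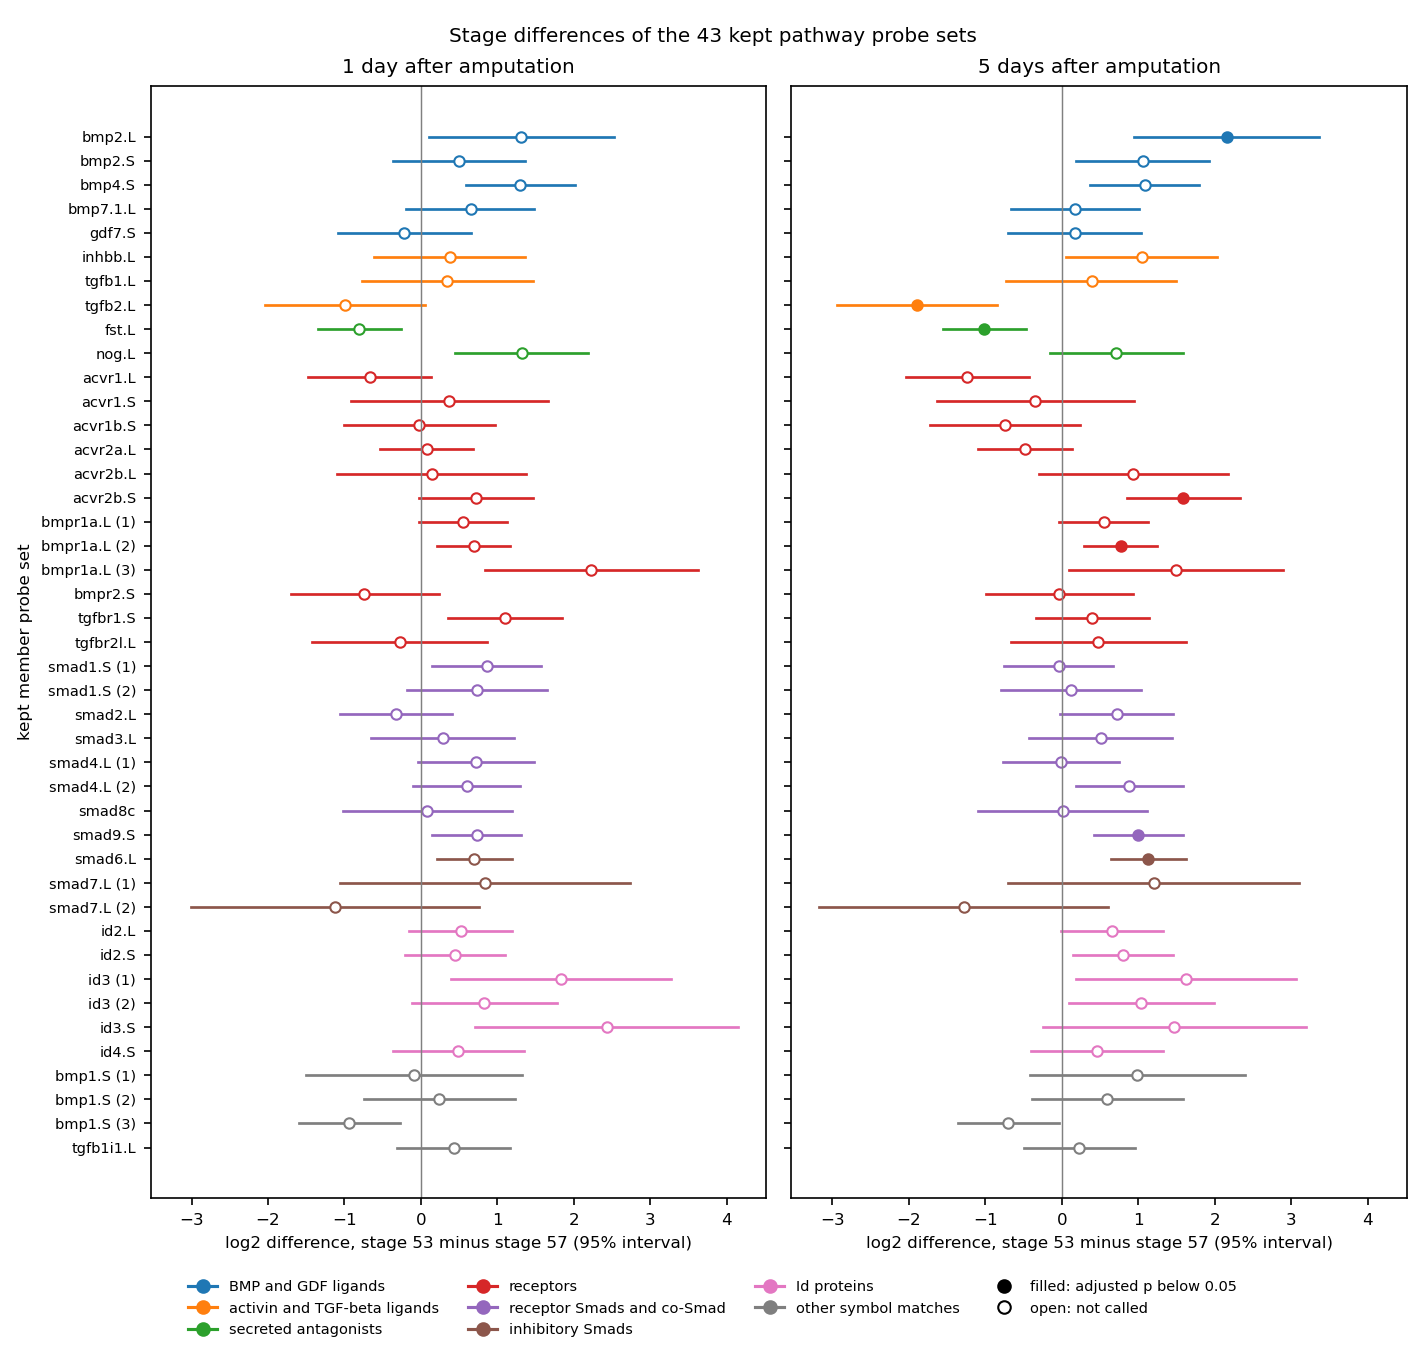
Stage 53 minus stage 57 log2 difference (horizontal axis, with 95% intervals from limma) of the 43 kept member probe sets, coloured by role, at 1 day (left) and 5 days (right) after amputation. Filled points passed the adjusted p threshold. All 7 filled points lie in the 5-day panel, 5 to the right of 0 and 2 to the left, and the 6 Id probe sets lie right of 0 on both days.

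Among the BMP and GDF ligands, 5 of 9 probe sets were kept, and bmp2 and bmp4 had the largest differences. The gene bmp2.L encodes BMP2, a ligand of limb outgrowth and skeletal formation. At stage 53 it read 8.8, 8.84, 8.34 and 8.26 at 1 day and 8.46, 9.08, 8.6 and 8.89 at 5 days. At stage 57 it read 7.16, 6.37, 7.9 and 7.56 at 1 day and 7.22, 4.2, 7.34 and 7.64 at 5 days. All 8 stage 53 arrays lay above all 8 stage 57 arrays. It was 4.45-fold higher at stage 53 at 5 days (log2 difference 2.16, SE 0.57, adjusted p = 0.0294). The value of 4.2 is from a high-actin array, and without the 3 high-actin arrays the difference was 1.36 (adjusted p = 0.0026). The call was lost without replicate 2, 3 or 4 of stage 53 at 5 days, with an adjusted p of up to 0.0812. It was also lost after quantile normalization and in a fit of only the compared arrays. At 1 day the difference was 1.31 (adjusted p = 0.241). The homeolog bmp2.S differed by 0.5 and 1.06 at 1 and 5 days and did not pass (adjusted p = 0.506 and 0.13). On the other 13 arrays bmp2.S differed by 0.99 at 1 day and passed at 5 days, at 1.43 (adjusted p = 0.00762).

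The BMP4 gene bmp4.S showed the smallest p of any member at 1 day. Stage 53 arrays read 8.95, 9.41, 9.69 and 9.34 at 1 day and stage 57 arrays 7.29, 8.57, 8.47 and 7.84, without overlap. The difference of 1.3 (SE 0.34) fell just short of the threshold (adjusted p = 0.0503). At 5 days bmp4.S read 9.37, 9.5, 8.89 and 8.65 at stage 53 and 7.69, 8.8, 7.53 and 8.04 at stage 57. Here 1 stage 57 array, of high actin ratio, lay above the lowest stage 53 array, and the difference was 1.09 (adjusted p = 0.06). Without the high-actin arrays bmp4.S passed on both days, at 1.78 (adjusted p = 0.0042) and 1.35 (adjusted p = 0.00401). The brightest kept ligand, bmp7.1.L, encoding BMP7, differed by 0.65 and 0.17 with overlapping arrays, and by 0.19 and -0.21 without the high-actin arrays. The remaining kept ligand, gdf7.S, differed by -0.22 and 0.17, and by 0.35 and 0.25 without them, so neither gene has a settled direction. The 4 other ligand probe sets, of bmp7.2.L, gdf1.S, gdf3.S and gdf6.S, had mean log2 signals of 3.86 to 5.15 and were not tested.

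Of the activin and TGF-beta ligands, tgfb2.L was lower at stage 53 and the other kept genes did not pass. The gene tgfb2.L encodes TGF-beta 2. It read 6.99, 7.3, 7.31 and 7.4 at stage 53 and 7.92, 7.61, 7.98 and 9.46 at stage 57 at 1 day. At 5 days it read 6.87, 7.22, 6.36 and 6.5 at stage 53 and 9.61, 6.91, 8.95 and 9.05 at stage 57. Stage 57 was the higher stage on both days, but at 5 days its high-actin array, at 6.91, fell within the stage 53 range. The 5-day difference was 3.71-fold (-1.89, SE 0.49, adjusted p = 0.0271), and it was -2.46 without the high-actin arrays (adjusted p = 0.000317), where the 1-day difference was -1.44. The call was lost, with an adjusted p of up to 0.0868, without replicate 3 or 4 of stage 53 or replicate 1, 3 or 4 of stage 57 at 5 days. It was lost as well in a fit of only the compared arrays. With all arrays the 1-day difference was -0.99 (adjusted p = 0.291). The gene tgfb2.L thus ran against the member median at both days. The genes tgfb1.L, encoding TGF-beta 1, and inhbb.L, encoding the activin beta B chain, differed by 0.39 and 1.05 at 5 days (adjusted p = 0.709 and 0.19). When the high-actin arrays were left out, inhbb.L differed by 1.35 (adjusted p = 0.0602), and tgfb1.L turned from 0.34 and 0.39 at 1 and 5 days to -0.21 and -0.17, so no direction is given for it. The probe set of inhbc.1.L was too dim to be tested.

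The secreted antagonists follistatin and noggin differed in opposite directions. Follistatin, from fst.L, binds activins with high affinity and some BMPs. Its signal at stage 53 was 9.33, 9, 9.28 and 9.13 at 1 day and 8.9, 8.79, 8.39 and 8.36 at 5 days. At stage 57 it was 9.94, 10, 10.35 and 9.68 at 1 day and 9.73, 10.25, 9.38 and 9.15 at 5 days. The stages did not overlap on either day. At 5 days fst.L was 2.02-fold lower at stage 53 (-1.02, SE 0.26, adjusted p = 0.0234), and at 1 day it differed by -0.81 (adjusted p = 0.117). The high-actin arrays were the highest stage 57 arrays for fst.L, and without them the 5-day difference was -0.81 (adjusted p = 0.0227). When replicate 2 of stage 57 at 5 days alone was left out, or replicate 3 or 4 of stage 53 at 5 days, the call was lost, with an adjusted p of up to 0.0813. A fit of only the compared arrays lost it too.

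Noggin, from nog.L, binds and blocks BMPs. It read 7.95, 7.5, 8.5 and 8.16 at stage 53 and 6.67, 6.33, 7.25 and 6.61 at stage 57 at 1 day. All stage 53 arrays were the higher ones there, and the difference of 1.32 (SE 0.41) did not pass (adjusted p = 0.106). At 5 days it read 7.43, 8.63, 7.9 and 7.94 at stage 53 and 6.34, 7.39, 6.91 and 8.4 at stage 57, with overlap and a difference of 0.71 (adjusted p = 0.322).

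Of 15 receptor probe sets 12 were kept, and 2 were called at 5 days, for a type II activin receptor and a type I BMP receptor. The gene acvr2b.S encodes activin receptor type 2B, which also binds several BMPs and GDFs. At 5 days it read 10.88, 11.05, 11.17 and 11.37 at stage 53 and 9.13, 10.59, 8.92 and 9.48 at stage 57. The stages were apart at 5 days, with the high-actin array, at 10.59, closest to stage 53. The gene was 3-fold higher at stage 53 at 5 days (1.59, SE 0.35, adjusted p = 0.0113) and 1.94 higher on the log2 scale without the high-actin arrays (adjusted p = 6.52e-05). At 1 day it read 10.45, 10.35, 11.07 and 10.46 at stage 53 and 9.36, 9.81, 10.68 and 9.59 at stage 57, where 1 high-actin array, at 10.68, exceeded 3 stage 53 arrays. The 1-day difference was 0.72 (adjusted p = 0.285), and without the high-actin arrays it was 1.11 and passed (adjusted p = 0.0364). Another acvr2b.S probe set lay below the filter, with a mean of 5.76, and was not tested. The homeolog acvr2b.L differed by 0.14 and 0.93 (adjusted p = 0.913 and 0.367), and by 1.17 and 1.25 without the high-actin arrays, of which the 5-day value passed (adjusted p = 0.0389). At 5 days acvr2b.L read 7.54, 7.73, 8.81 and 8.84 at stage 53, with replicates 3 and 4 well above the others. At stage 57 it read 7.1, 8.25, 7.06 and 6.77, where 8.25 is from the high-actin array.

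The gene bmpr1a.L, encoding BMP receptor type 1A, has 3 kept probe sets, and all 3 were higher at stage 53 on both days. Their differences were 0.55, 0.69 and 2.23 at 1 day and 0.55, 0.77 and 1.5 at 5 days. The first and the second are annotated to the same source sequence, so they may not be separate readings of the gene. The second of them, whose identifier ends in x_at, read 11.1, 11.34, 10.95 and 11.28 at stage 53 and 10.22, 10.52, 10.02 and 10.83 at stage 57 at 5 days. It was called there (1.71-fold, SE 0.23 on the log2 scale, adjusted p = 0.0472), but the call held in 9 of 26 alternative settings, and in 4 of the 16 fits that left out 1 array (adjusted p of up to 0.15). The first and the third did not pass at 5 days (adjusted p = 0.249 and 0.185). All 3 passed without the high-actin arrays, at 0.79, 0.81 and 1.26. The suffix of the called probe set marks probes that may also bind related transcripts, so signal from another gene is not separated here. At 1 day the third, whose identifier ends in a_at, read 9.32, 9.72, 9.03 and 9.47 at stage 53 and 8.31, 7.63, 4.25 and 8.44 at stage 57. The value of 4.25 and that of 7.63 are from high-actin arrays. Its difference of 2.23 (adjusted p = 0.0893) was 1.01 without the high-actin arrays (adjusted p = 0.144). The homeolog bmpr1a.S and a second tgfbr2l.L probe set were too dim to be tested.

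The other receptors included members that read lower at stage 53. The brightest, acvr1.L, encodes the type I receptor ALK2, which carries BMP signals. At 5 days it read 11.49, 11.7, 10.88 and 10.78 at stage 53 and 11.48, 13.32, 12.45 and 12.55 at stage 57. All but the lowest stage 57 array were above stage 53, and the difference of -1.24 (SE 0.38) did not pass (adjusted p = 0.0579). Its homeolog acvr1.S differed by only -0.35 (adjusted p = 0.782). Without the high-actin arrays both passed at 5 days, acvr1.L at -0.95 (adjusted p = 0.0332) and acvr1.S at -1.11 (adjusted p = 0.0108). At 1 day acvr1.L differed by -0.67 and acvr1.S by 0.37, and without those arrays by -0.1 and -0.46. The TGF-beta type I receptor gene tgfbr1.S had no overlap at 1 day and differed by 1.1 (adjusted p = 0.119), and by 0.4 at 5 days. These were 0.55 (adjusted p = 0.573) and 0.2 without the high-actin arrays. The other 4 kept receptor probe sets, of acvr1b.S, acvr2a.L, bmpr2.S and tgfbr2l.L, differed by -0.74 to 0.08 at 1 day and by -0.74 to 0.47 at 5 days. They differed by -0.19 to 0.56 and by -0.63 to 0.74 without the high-actin arrays, where acvr1b.S and tgfbr2l.L turned positive at 1 day and bmpr2.S at 5 days.

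**Figure D2:**
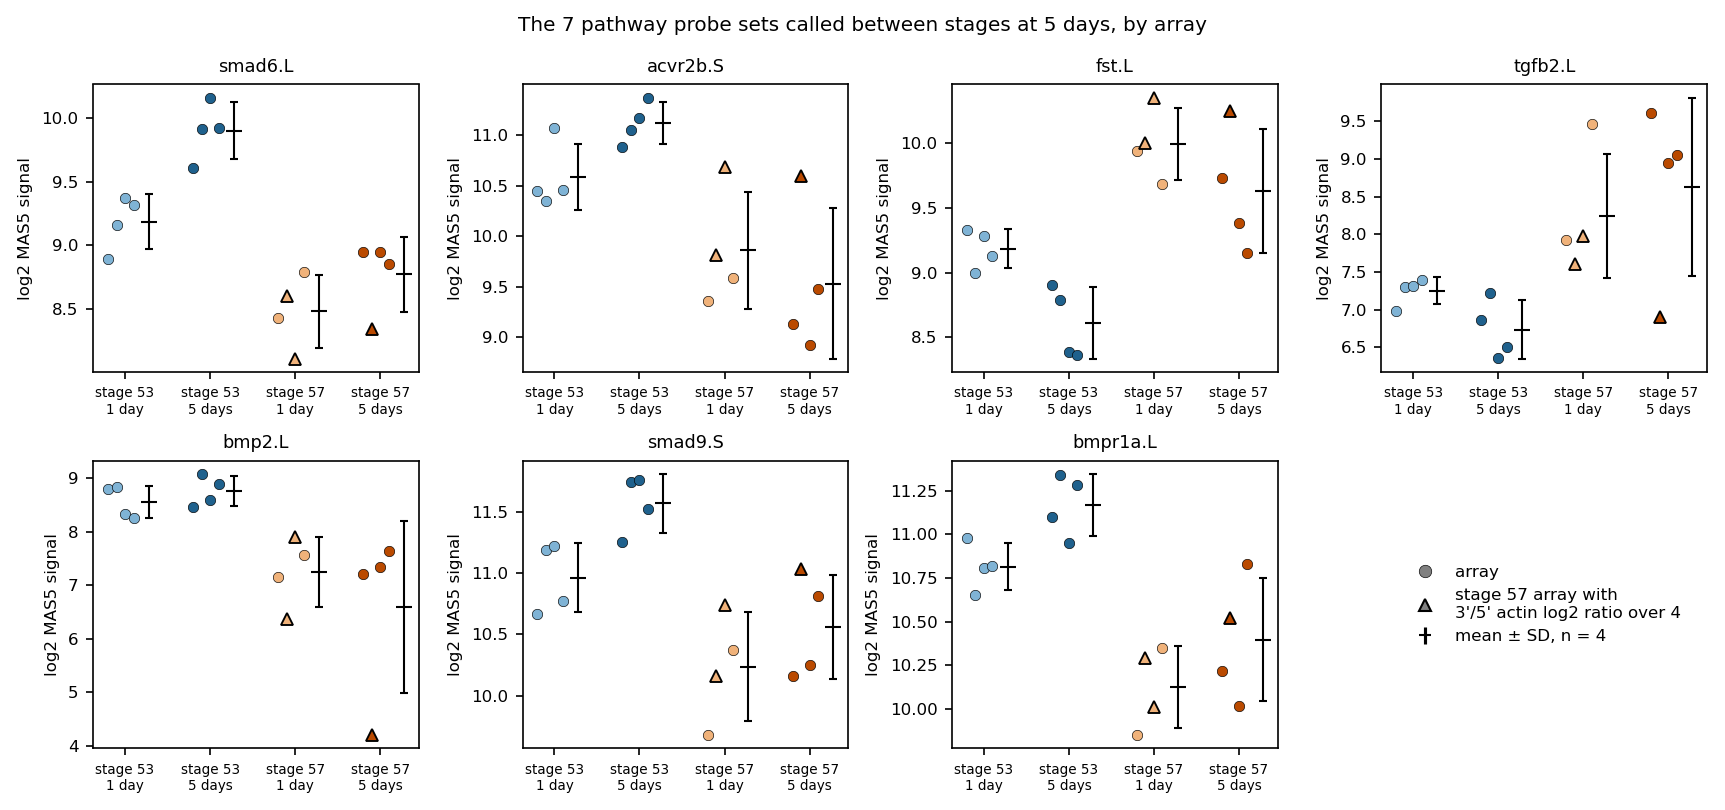
Log2 MAS5 signal (vertical axis, a scale per panel) of the 7 member probe sets called between stages at 5 days, on each of 16 arrays in the 4 groups. Triangles are the 3 high-actin stage 57 arrays, and bars are group mean ± SD (n = 4). Stage 53 arrays lie above stage 57 arrays at 5 days in 5 panels and below them in fst.L. In tgfb2.L the triangle at 6.91 overlaps stage 53.

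Among the receptor Smads and co-Smad, 8 of 9 probe sets were kept and smad9.S was the one called. The gene smad9.S encodes a receptor Smad of the BMP class. It read 11.25, 11.74, 11.76 and 11.52 at stage 53 and 10.16, 11.03, 10.25 and 10.81 at stage 57 at 5 days, without overlap. It was 2.01-fold higher at stage 53 (1, SE 0.28, adjusted p = 0.0348), and the call was lost without replicate 2, 3 or 4 of stage 53 or replicate 1, 3 or 4 of stage 57 at 5 days, with an adjusted p of up to 0.114. At 1 day it read 10.67, 11.19, 11.22 and 10.77 at stage 53 and 9.68, 10.16, 10.74 and 10.37 at stage 57, with a difference of 0.73 (adjusted p = 0.189). Removal of the high-actin arrays left a 5-day difference of 1.16 (adjusted p = 0.00563).

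The other Smad members of these classes were not called on either day. The brightest was the second probe set of smad4.L, which encodes the shared co-Smad. It differed by 0.6 and 0.88 at 1 and 5 days (adjusted p = 0.333 and 0.117), and the first smad4.L probe set differed by 0.72 and -0.01. These became 0.22 and 0.6, and 0.34 and -0.13, without the high-actin arrays. For the BMP-class Smad gene smad1.S, the probe sets differed by 0.86 and 0.74 at 1 day and by -0.04 and 0.12 at 5 days. They differed by 0.57 and 0.01 at 1 day and by -0.16 and -0.27 at 5 days without the high-actin arrays. The activin and TGF-beta class genes smad2.L and smad3.L differed by -0.33 and 0.29 at 1 day and by 0.72 and 0.51 at 5 days. Without those arrays smad2.L turned to 0.17 and smad3.L was 0.77 at 1 day, with 0.73 and 0.31 at 5 days. The probe set annotated smad8c differed by 0.08 and 0.01, and smad1.L lay just under the filter with a mean of 6.56.

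The inhibitory Smad gene smad6.L had the smallest p of all members at 5 days. Smad6 blocks BMP-class receptor signalling and is itself known to be induced by BMPs. The probe set read 8.89, 9.16, 9.37 and 9.32 at stage 53 and 8.43, 8.6, 8.11 and 8.79 at stage 57 at 1 day. At 5 days it read 9.61, 9.91, 10.16 and 9.92 at stage 53 and 8.95, 8.34, 8.95 and 8.85 at stage 57. The stages did not overlap on either day, and stage 53 at 5 days was the highest group. At 5 days smad6.L was 2.18-fold higher at stage 53 (1.13, SE 0.23, adjusted p = 0.00762), and at 1 day the difference was 0.7 (adjusted p = 0.131). The 5-day call held in all 26 alternative settings, as did that of acvr2b.S, with smad6.L at 0.98 without the high-actin arrays (adjusted p = 0.0059).

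For smad7.L, whose product restrains both branches of the pathway, the kept probe sets disagreed. The first, whose identifier ends in a_at, differed by 0.84 and 1.2 at 1 and 5 days, and the second by -1.12 and -1.28, none of them called. The first smad7.L probe set read 12.88 on 1 array of stage 53 at 1 day and 11.21 and 12.86 on 2 arrays of stage 53 at 5 days, against 8.41 to 10.12 on all others. The second read 8.96, 11.03 and 11.04 on the high-actin arrays against 5.46 to 8.1 elsewhere. Without those arrays the second differed by 0.6 at 1 day, with its sign turned, and by -0.48 at 5 days, and the first by 1.39 and 1.49. A further smad7.L probe set was too dim to be tested, and no direction for smad7.L is given.

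With all arrays the 6 Id probe sets read higher at stage 53 on both days, but none was called. Their differences ran from 0.45 to 2.43 at 1 day (median 0.67) and from 0.46 to 1.62 at 5 days (median 0.92). Id proteins bind and block basic helix-loop-helix transcription factors. At an unadjusted limma p below 0.05, 2 passed at 1 day and 3 at 5 days, or 33.3% and 50%. Of all kept probe sets 10.3% and 12.8% passed as higher. Stages did not overlap in 4 at 5 days (id2.L, id2.S, id3.S and 1 id3 probe set), beside 11.2% of all kept probe sets that were higher without overlap. The brightest, id3.S, read 11.86, 12.53, 12.95 and 12.81 at stage 53 and 11.38, 9.2, 7.87 and 11.98 at stage 57 at 1 day. At 5 days it read 12.73, 13.03, 12.92 and 12.88 at stage 53 and 12.39, 8.74, 12.13 and 12.45 at stage 57. The 3 lowest values, 9.2, 7.87 and 8.74, are those of the high-actin arrays. The id3.S differences were 2.43 (SE 0.82, adjusted p = 0.139) and 1.47 (adjusted p = 0.305), and without those arrays 0.86 and 0.57, neither called. The probe sets annotated id3 differed by 1.83 and 0.83 at 1 day and by 1.62 and 1.04 at 5 days. On the other 13 arrays these were 0.7 (adjusted p = 0.371) and 0.34 at 1 day and 0.82 (adjusted p = 0.055) and 0.55 at 5 days. The identifier of the second id3 probe set ends in x_at, so signal from related transcripts is not separated in it. The genes id2.L, id2.S and id4.S differed by 0.66, 0.8 and 0.46 at 5 days. Without the high-actin arrays the Id median was 0.33 at 1 day and 0.56 at 5 days, where id2.L, id2.S and id4.S differed by 0.42, 0.9 and 0.

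The symbol rule also took up genes that are no ligand, receptor or Smad. The gene bmp1.S encodes a metalloprotease that processes procollagen and cleaves the BMP antagonist chordin. Its 3 kept probe sets differed by -0.09, 0.24 and -0.94 at 1 day and by 0.99, 0.59 and -0.7 at 5 days, none called. With the high-actin arrays left out they differed by 0.12, 0.66 and -0.72 and by 1.36, 0.71 and -0.77, none called. The gene tgfb1i1.L, encoding the focal adhesion protein Hic-5, differed by 0.43 and 0.23, and by -0.1 and -0.12 without those arrays. The probe sets of the homeolog bmp1.L were below the signal filter.

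**Figure D3:**
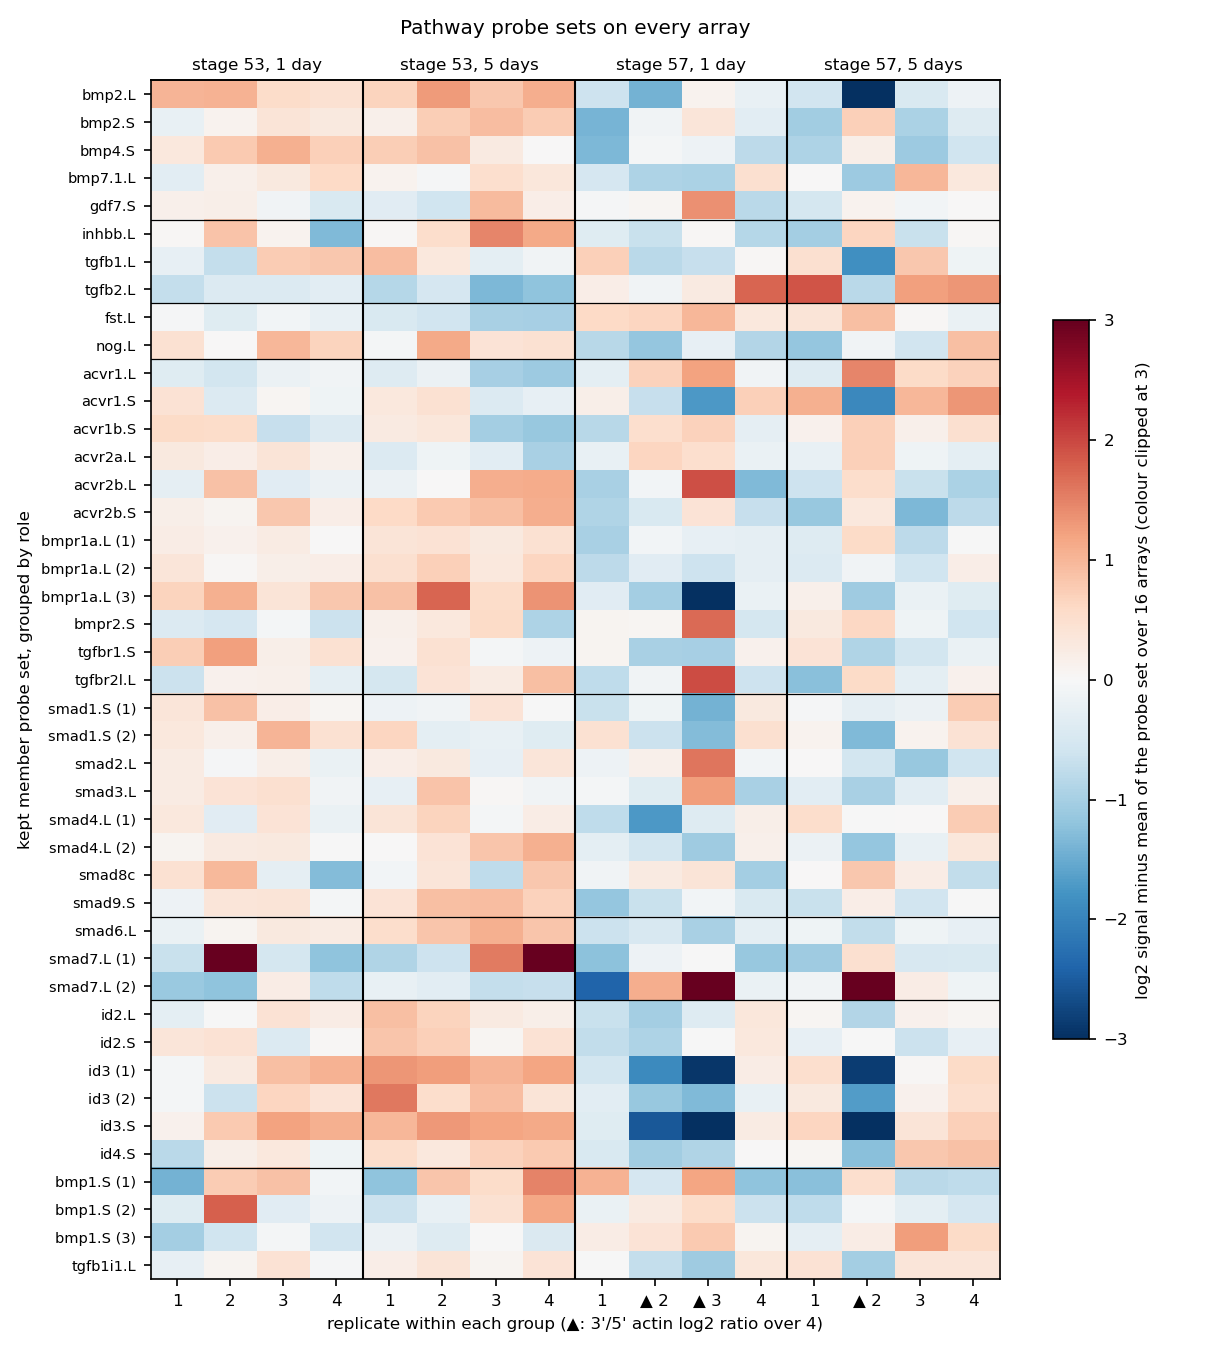
Log2 signal of each kept member probe set minus its own mean over 16 arrays (colour, clipped at 3) by array, with probe sets grouped by role (rows) and arrays by group (columns). Red is above and blue below the probe set's mean. Triangles mark the 3 high-actin arrays, where id3.S is lowest and the second smad7.L probe set highest.

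Change from 1 to 5 days was asked within each stage. At stage 53, 0 of 43 members were called, beside 0.121% of all kept probe sets. At an unadjusted limma p below 0.05, 2 were higher and 2 lower at 5 days, or 9.3%, beside 9.56% of all. The 4 were smad6.L at 0.71 (adjusted p = 0.259), smad9.S at 0.6 (0.5), acvr2a.L at -0.72 (0.405) and fst.L at -0.58 (0.48), each without overlap between days. The activin type II receptor gene acvr2a.L read 9.06, 8.96, 9.15 and 8.92 at 1 day and 8.35, 8.63, 8.44 and 7.78 at 5 days. In all 5 members, or 11.6%, did not overlap between the days, beside 11.1% of all kept probe sets, so the members stood near the background. At stage 57, 0 members were called, beside 0% of all kept probe sets, and 2 had an unadjusted limma p below 0.05, beside 2.04%. The 2 were smad4.L at 0.99 and smad2.L at -0.95, followed by id4.S at 0.72 and bmpr1a.L at 1.12, each at adjusted p = 0.999. No member was without overlap between the days, beside 0.835%. The 1-day group includes 2 high-actin arrays and the 5-day group 1. Without them the changes were 0.73 for smad4.L, -0.46 for smad2.L, 0.81 for id4.S and 0.14 for bmpr1a.L, and the sign turned in 11 of 42 members.

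The day change did not pass as different between stages for any member, beside 0.0258% of all kept probe sets called. The smallest p was that of smad2.L, whose difference of day changes was 1.04 (95% interval 0 to 2.09, adjusted p = 0.997), the 1 member with an unadjusted limma p below 0.05, beside 3.97% of all. The next were smad1.S at -0.9, acvr2b.S at 0.87 and smad4.L at -0.74. When those arrays were left out, smad2.L was at 0.56, smad1.S at -0.73, acvr2b.S at 0.84 and smad4.L at -0.47, and 6 of 42 members turned sign. Calls at 5 days and none at 1 day thus do not show that the stage difference changed between days. For acvr2b.S, with stage differences of 0.72 and 1.59, the interval of the change ran from -0.18 to 1.92.

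Within stage 57, many members separated the 3 high-actin arrays from the other 5. No test was made of that split. Of the 43 members, 13 were higher and 12 lower on all 3 arrays than on any of the 5, or 58.1%, beside 39.5% of all kept probe sets. The mean difference between the 3 and the 5 exceeded 1 on the log2 scale in either direction for 18 members, or 41.9%, beside 33.5%. The lowest were id3.S at -3.46, the first id3 probe set at -2.72, acvr1.S at -2.32 and the third bmpr1a.L probe set at -1.97. The highest were the second smad7.L probe set at 3, acvr2b.L at 1.7 and tgfbr2l.L at 1.38. The homeologs of the receptor gene acvr1 went opposite ways, with acvr1.L at 1.02. Of the called members, acvr2b.S and fst.L read higher on all 3 arrays than on the other 5, and the remaining 5 overlapped.

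**Figure D4:**
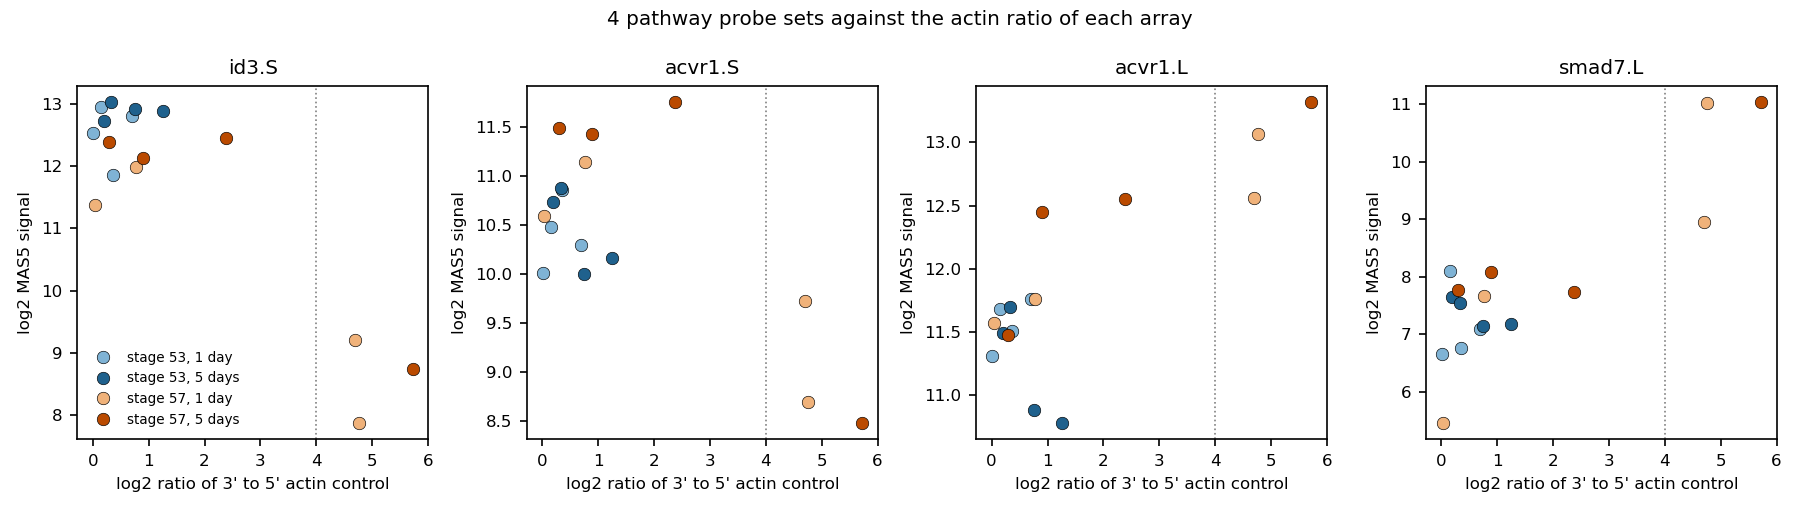
Log2 MAS5 signal (vertical axis) of id3.S, acvr1.S, acvr1.L and the second smad7.L probe set against the log2 actin control ratio, 3' over 5' (horizontal axis), 1 point per array, coloured by group. The 3 arrays right of the dotted line at 4 are all stage 57. They lie lowest for id3.S and acvr1.S and highest for acvr1.L and smad7.L.

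Without the 3 arrays, which leaves 2 of stage 57 at 1 day and 3 at 5 days, 14 members were called at 5 days and 3 at 1 day. At 5 days 10 were higher and 4 lower at stage 53, or 32.6% of 43, beside 15.8% of all kept probe sets (8.27% higher and 7.54% lower). They were the 7 called with all arrays together with bmp2.S, bmp4.S, acvr2b.L, the other bmpr1a.L probe sets, acvr1.L and acvr1.S. At 1 day the 3 were bmp4.S, acvr2b.S and bmp2.L (1.2, adjusted p = 0.0416), all higher, or 6.98%, beside 2.12% (0.68% higher and 1.44% lower). In that fit smad1.L passed the signal filter and smad8c did not.

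Other genes of the pathway were read from a list of 63 probe sets, of which 40 were kept. At 5 days 4 were called higher at stage 53 and 2 lower, or 15%, beside 7.37% of all kept probe sets. At 1 day 1 was called higher and 1 lower, or 5%, beside 2.55%. Their median was 0.02 at 5 days and 0.05 at 1 day, beside 0.1 and 0.04 over all kept probe sets. Without the high-actin arrays 41 were kept. At 5 days 5 of them were called higher and 7 lower (29.3%, beside 15.8% of all), with a median of -0.18 beside 0.11 over all. At 1 day 1 was called higher and 2 lower (7.32%, beside 2.12%), with a median of 0.06. Of 9 kept secreted modulators, grem1.L, encoding the BMP antagonist gremlin, was called at 5 days. It read 10.2, 9.82, 9.99 and 10.03 at stage 53 and 7, 5.99, 7.15 and 8.29 at stage 57, a 7.48-fold difference (adjusted p = 0.000241), without overlap.

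Of 15 kept probe sets of genes known to respond to the pathway, 2 were higher and 2 lower at 5 days with all arrays, and 2 higher and 6 lower without the high-actin arrays. That is 26.7% and 53.3%, beside 7.37% and 15.8% of all kept probe sets. The homeobox genes msx1.L and msx2.L, known targets of BMPs in limbs, were higher. At 5 days msx1.L read 9.16, 9.58, 10.24 and 10.21 at stage 53 and 7.2, 7.6, 7.5 and 7.79 at stage 57 (2.28, adjusted p = 0.0011). One msx2.L probe set differed by 2.53 (adjusted p = 0.00998), and the other by 0.3. The lower ones were tagln.L, a smooth muscle actin-binding protein gene that TGF-beta induces in many cells, at -3.6 (adjusted p = 0.00334), and ccn2.L, a matrix-associated factor also known to be induced by TGF-beta, at -3.22 (adjusted p = 0.00149). Arrays of tagln.L read 7.06, 7.52, 7.68 and 7.82 at stage 53 and 11.9, 9.16, 11.77 and 11.67 at stage 57 at 5 days, without overlap. The second ccn2.L probe set, at -1.78, did not pass with all arrays (adjusted p = 0.144). It passed on the other 13 arrays, at -2.66 (adjusted p = 0.000362), with the first at -2.99. Also lower there were tagln.L at -4.26, tgfbi.L at -0.48, junb.L at -1.25 and the smooth muscle actin gene acta2.L at -1.36. Of 14 kept cytoplasmic and nuclear regulators, tgif2.L, encoding a repressor that binds Smads, was called at 5 days (1.58, adjusted p = 0.0155). At 1 day msx1.L differed by 1.62 (adjusted p = 0.0247) and tagln.L by -2.7 (adjusted p = 0.0383), and without the high-actin arrays msx1.L did not pass there (adjusted p = 0.093). In that fit 1 of the responding probe sets was called higher and 2 lower at 1 day. The largest difference, 2.33, was that of the msx2.L probe set called at 5 days. With all arrays that probe set differed by 1.33 at 1 day (adjusted p = 0.218).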

How the data were processed

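Total RNA from 16 samples, grouped by array title, was amplified in 2 cycles from 1 microgram and read on Affymetrix arrays with a single colour, per the labels. The authors deposited linear intensities, made with MAS5 according to the submitters' processing notes, of a version not given in the sources used here. Detection calls were not used, so dim signals are not separated from background. Replicates are not labelled as separate animals. P-values then cover the spread between arrays alone, and that spread may be technical. Each group fills a consecutive block of array codes, so any order of processing and group cannot be told apart.

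Intensities were transformed to log2 with no offset. The 120 control probe sets were left out, and 11618 probe sets with a mean above the 25th percentile (6.6) were kept. One fit of 4 group means to all 16 arrays used limma 3.58.1 in R 4.3.3 (lmFit, eBayes with intensity trend), with 5 comparisons and Benjamini-Hochberg adjustment over all kept probe sets. A call is an adjusted p below 0.05, and every adjusted p is from limma. The fit was tested on simulated data. Fold changes are linear ratios taken back from the log2 differences, and the number of arrays limits the precision.

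Members, roles, the wider list, the markers and the alternatives were chosen with earlier results of these data known. Named were all called members, up to 4 of smallest p per comparison, the brightest and smallest-p member of each role, their homeologs and further probe sets, and called genes of the wider list. Other members are named to account for all. Of the member probe sets 52 matched RefSeq (Xenopus_laevis_v10.1) by Entrez identifier, and 5 probe sets with several fitting symbols were left out. Sequences and coordinates were not used here. Alternatives were quantile or median scaling, 2 offsets, 2 filters, no trend, array weights, only the compared arrays, each array left out, and removal of the 3 high-actin arrays.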

Additional observations from a re-analysis of the deposited data

Results flagged for a closer look

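Of 60 sets of 4 arrays examined among the named probe sets, 5 held an array far from the other 3 (the gap to the nearest array, as a share of the range, was above Dixon's 95% critical value), and chance flags about 1 in 20 such sets. In stage 57 at 5 days, replicate 2 was the far array for acvr2a.L at 9.47 (nearest array 8.64), for bmp2.L at 4.2 (nearest 7.22) and for smad6.L at 8.34 (nearest 8.85). In stage 57 at 1 day, replicate 3 was the far array for smad2.L at 11.12 (nearest 9.67). Both are high-actin arrays. In stage 53 at 1 day, replicate 3, which has a low actin ratio of 0.15, was the far array for acvr2b.S at 11.07 (nearest 10.46).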

How the results depend on the processing

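No paired analysis was possible because the labels carry no replicate numbers shared between groups. For 23 differences of named members, 589 alternative values were computed. Of these, 541 kept the direction and the side of the threshold, 38 were no longer called, 10 became called and 0 changed sign. All 38 losses fell on the 7 differences called with all arrays, so 541 of 589 overstates how steady the calls were. The 23 were called or of smallest p, and differences outside the 23 did turn sign without the high-actin arrays. Members called at 1 day numbered 0 with all arrays (beside 2.55% of all kept probe sets). Without the high-actin arrays they numbered 3 (beside 2.12%). They numbered 1 after median centring, 1 and 2 with offsets of 31.3 and 101.8, and 2 with array weights. Leaving out 1 array gave 0 to 4. The 4, without replicate 2 of stage 57 at 5 days, were bmp2.L, bmp4.S, id3 and id3.S. Members called at 5 days numbered 7 with all arrays (beside 7.37% of all kept probe sets) and 19 with array weights (beside 23%). They numbered 14 without the high-actin arrays (beside 15.8%) and 4 with only the compared arrays. With 1 array left out they numbered 2 to 10, with 2 lacking replicate 3 or replicate 4 of stage 53 at 5 days, 4 lacking replicate 2 of that group or replicate 3 of stage 57 at 5 days, and 10 lacking replicate 3 of stage 57 at 1 day. Between days at stage 53, array weights called 3 members (smad6.L, acvr2a.L and inhbb.L) and leaving out 1 array called 0 to 0. Where no share of all kept probe sets is given beside such a count, the count is not read as a result about the members. The share itself moved with the setting, as the 7.37%, 15.8% and 23% at 5 days show. Between days at stage 57 and for the difference of day changes, all run alternatives called 0. Over 25 alternatives bmp2.L at 5 days ran from 1.27 to 2.5 and was called in 20, and tgfb2.L ran from -2.46 to -1.31 and was called in 19. Median centring moved the median of all kept probe sets at 5 days from 0.102 to 0.006 and the split of all calls from 404 higher and 452 lower to 302 and 569. The cause of these moves was not tested, and the effect of having fewer arrays was not separated where arrays were left out.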

Other observations

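Some members shared far arrays within stage 53. The smad7.L probe set with the stage 53 values of 12.88, 11.21 and 12.86 was high on replicate 2 of the 1-day group and replicates 3 and 4 of the 5-day group. The bmp1.S probe set whose identifier ends in x_at was highest on the same arrays, at 11.72, 10.39 and 11.09, against 9.27 to 9.77 on the other stage 53 arrays. The receptor gene acvr2b.L also read highest there, at 8.6, 8.81 and 8.84, against 7.38 to 7.73. Their actin ratios, 0.01, 0.75 and 1.25, were below 4. The 3' over 5' ratio of another RNA control, GAPDH, was 5.06, 5.22 and 4.39 (log2) on them. On the other stage 53 arrays the GAPDH ratio was 3.63 to 4.45. The probe sets were picked after their values were seen, and no test was made.

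The group with the highest mean was stage 53 at 5 days for smad6.L (9.9 ± 0.22, SD, n = 4), smad9.S, acvr2b.S, bmp2.L and the called bmpr1a.L probe set. That group had the lowest mean for fst.L and tgfb2.L. All of these were picked by their stage difference at 5 days, so its place at one end is partly built in. In each of these called members the neighbouring group in that order was stage 53 at 1 day. The day difference at stage 53 did not pass in any of them.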
